A study of Homo sapiens with 12 samples.

Results

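The 10 genes described here, FAP, LRRC15, FBLN1, ACTA2, TAGLN, VIM, S100A4, PRRX1, TWIST1 and TWIST2, are used as markers of fibroblast-like and mesenchymal cells. They were taken by gene name from the 63677 gene identifiers in each library, and each matched 1 identifier in each of the 12 libraries. RNA was measured in DAOY, an established human medulloblastoma cell line, in NOTCH1KO cells, in NOTCH2KO cells and in unedited wild-type (WT) cells, with both knockout lines made by CRISPR/Cas9. The cells of each genotype stood for 12 h on plates coated with the Notch ligand Jagged1 or with the control protein Fc, and received either DAPT, a γ-secretase inhibitor that blocks all Notch receptors, or the solvent DMSO. The 4 cultures of a genotype were therefore Jagged1 with DAPT, Jagged1 with DMSO, Fc with DAPT and Fc with DMSO, and each of the 12 combinations had 1 library. Only 1 line of each genotype was sequenced, and whether a line came from a single clone is not stated in the sources used here. A difference between genotypes therefore cannot be told apart from a difference between these lines. The question put to these genes was how their levels differed between the genotypes and between the cultures.

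Fibroblast activation protein (FAP) is a serine protease of the cell surface, and LRRC15 is a membrane protein with leucine-rich repeats; both are found on activated fibroblasts of tumour stroma. FBLN1 encodes fibulin-1, a glycoprotein of the extracellular matrix. ACTA2 and TAGLN encode smooth muscle α-actin and transgelin, which bind or build the contractile actin filaments of smooth muscle and myofibroblasts, and both are classical targets of serum response factor (SRF). VIM encodes vimentin, the intermediate filament protein of mesenchymal cells, and S100A4 a small calcium-binding protein also called fibroblast-specific protein. PRRX1, a homeodomain factor, and TWIST1 and TWIST2, basic helix-loop-helix factors, act in the mesenchyme of the embryo and in epithelial-to-mesenchymal transition (EMT). Cells outside connective tissue, including tumour cell lines, can express any of them.

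Promoter sequences are shown for the genes whose levels differed between NOTCH1KO and WT cells and that the RefSeq promoter table held, because shared binding motifs would be looked for there first. Of the 10 genes, 7 had an entry (all but FAP, TAGLN and TWIST1), and the 250 bases before the start site are printed 5′ to 3′ on the strand of the gene (RefSeq, GRCh38.p14). Capitals mark a match on either strand to one of 5 motifs, namely the strict CArG box bound by SRF (CC, then 6 bases that are each A or T, then GG), the same box with 1 of those 6 bases G or C, CATTCC (the MCAT element), CANNTG (the E-box bound by TWIST proteins, among others) and GTGGGAA (the core site of the Notch cofactor RBPJ). ACTA2 had a pair of annotated start sites, of which the downstream one is shown.
ACTA2, chr10:88952774-88953023, minus strand: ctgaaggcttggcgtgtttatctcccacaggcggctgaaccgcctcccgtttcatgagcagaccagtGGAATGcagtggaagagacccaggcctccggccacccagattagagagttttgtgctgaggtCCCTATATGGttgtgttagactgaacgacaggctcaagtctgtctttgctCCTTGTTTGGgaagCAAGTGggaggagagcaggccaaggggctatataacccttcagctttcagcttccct
S100A4, chr1:153545807-153546056, minus strand: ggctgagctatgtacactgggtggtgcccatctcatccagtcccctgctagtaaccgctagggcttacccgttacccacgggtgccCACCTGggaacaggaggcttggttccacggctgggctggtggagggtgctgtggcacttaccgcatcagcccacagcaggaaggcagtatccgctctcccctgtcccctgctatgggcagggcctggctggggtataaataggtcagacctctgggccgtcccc
LRRC15, chr3:194369744-194369993, minus strand: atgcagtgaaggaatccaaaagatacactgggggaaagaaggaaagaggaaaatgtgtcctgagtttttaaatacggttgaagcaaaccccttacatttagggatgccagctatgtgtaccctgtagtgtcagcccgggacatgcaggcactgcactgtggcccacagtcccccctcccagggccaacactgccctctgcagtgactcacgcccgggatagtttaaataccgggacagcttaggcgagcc
PRRX1, chr1:170663881-170664130, plus strand: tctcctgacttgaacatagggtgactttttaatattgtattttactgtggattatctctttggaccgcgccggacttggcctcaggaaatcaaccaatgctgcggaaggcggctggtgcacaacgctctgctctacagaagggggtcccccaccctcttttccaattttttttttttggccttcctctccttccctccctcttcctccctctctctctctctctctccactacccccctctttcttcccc
In ACTA2 the capitals were GGAATG, the reverse complement of CATTCC, from base -183, the CArG boxes with 1 base off the strict form CCCTATATGG from base -121 and CCTTGTTTGG from base -71, and the E-box CAAGTG from base -57. In S100A4 they were the E-box CACCTG from base -164. The sequences of LRRC15 and PRRX1 held none of the 5 motifs, and neither did those of FBLN1, VIM, TWIST2 and the upstream start of ACTA2. Over all 35116 promoters of the table, windows of the same length held a strict CArG box in 1.16%, one with 1 base off in 5.96%, CATTCC in 11.9%, CANNTG in 61.8% and GTGGGAA in 5.43%. These matches describe letters only, and a motif can lie outside the window.

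The libraries held between 18.3 and 22.4 M reads, estimated from the ratio of coverage to FPKM, and correlations between pairs of libraries lay between 0.924 and 0.976. NOTCH1 stood at 0.565 ± 0.249 TPM in NOTCH1KO cells against 3.19 ± 0.337 TPM in WT cells, and NOTCH2 at 50.7 ± 7.95 TPM in NOTCH2KO cells against 80.7 ± 9.56 TPM in WT cells (SD, n = 4 each). TPM is a level scaled for gene length and for the total of the library. Log2 differences below were computed on log2(TPM + 1), where the change of a gene at a low level comes out smaller than it was. Tests were made with limma over the 17621 genes whose TPM averaged 1 or more, and a gene was called at an adjusted p under 0.05. Each combination had 1 library, so the error measured departure from additive effects of genotype and culture among these libraries and not the spread between independent cultures.

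Vimentin transcripts were by far the most abundant of the 10, with a mean over the 12 libraries of 4454 ± 930 TPM (SD, n = 12, here and in the rest of this paragraph). S100A4 followed with 181 ± 74.6 TPM, FBLN1 with 48.8 ± 23.6 TPM and TWIST1 with 25.6 ± 4.56 TPM. TAGLN averaged 17.5 ± 9.31 TPM, LRRC15 17.4 ± 10.8 TPM and FAP 13.6 ± 10.3 TPM. TWIST2 at 3.82 ± 0.977 TPM, PRRX1 at 3.66 ± 4.95 TPM and ACTA2 at 3.41 ± 1.53 TPM were the lowest. By range over the 12 libraries, only VIM stood clear of its neighbour in this order, its lowest library at 2784 TPM against 342 TPM in the highest library of S100A4, and every other adjacent pair overlapped. Within each single library, however, S100A4 was above FBLN1 and FBLN1 above TWIST1. The spread across libraries was widest for PRRX1, whose highest library was 27.2 times its lowest, and for FAP, at 18.6 times. It was narrowest for TWIST1, at 1.71 times, followed by VIM, at 2.32 times. All 10 genes passed the filter on low values.

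Markers of other cell types were read in the same libraries. Of 15 epithelial markers, 8 had a mean TPM of at least 1, led by the keratins KRT18 and KRT8, while the defining markers CDH1 and EPCAM averaged 0.150 and 0.483 TPM. Summed TPM of the 15 was 608 to 772 in NOTCH1KO, 703 to 830 in NOTCH2KO and 792 to 1060.3 in WT libraries. NOTCH1KO thus lay below WT without overlap, as did 12.5% of single genes tested. Most of the sum was KRT18, with means of 565, 637 and 810 TPM in NOTCH1KO, NOTCH2KO and WT. Of the 8 tested, 0 were called higher and 2 lower in NOTCH1KO against WT, beside 10.7% and 12.8% of all genes. These were KRT18 (log2 difference -0.51, adjusted p = 0.0341, limma) and KRT14 (-2.25, adjusted p = 0.00468). Of 12 blood and endothelial markers, CD68 and TEK had a mean TPM of at least 1, PTPRC, CD3E and PECAM1 were listed at 0 in each library, and the sums were 8.77 to 23.5 in NOTCH1KO, 16.3 to 21.7 in NOTCH2KO and 13.9 to 21.0 in WT libraries. Of 15 markers of cerebellar granule lineage and neurons, 8 had a mean TPM of at least 1, among them ZIC1, ZIC2, PAX6 and TUBB3, while the granule precursor factor ATOH1 averaged 0.0281 TPM and NEUROD1 0.0522 TPM. Their sums were 78.5 to 101 in NOTCH1KO, 130 to 147 in NOTCH2KO and 105 to 125 in WT libraries, lowest in NOTCH1KO and highest in NOTCH2KO, without overlap. Of single genes, 12.5% lay below WT in NOTCH1KO, 15.0% above WT in NOTCH2KO and 19.6% above NOTCH1KO in NOTCH2KO, without overlap. TUBB3, the most abundant of the 15, had the order of the sums in its means (32.6, 67.4 and 50.2 TPM in NOTCH1KO, NOTCH2KO and WT). Single markers differed from that order, with PAX6 lowest in NOTCH2KO (16.7, 12.0 and 19.4 TPM) and SYP highest in NOTCH1KO (6.17, 4.29 and 4.69 TPM). Of the 8 tested, 0 were called higher and ZIC1 lower in NOTCH1KO against WT, beside 10.7% and 12.8% of all genes. In NOTCH2KO against WT, GLI2 and EN2 were called higher and 0 lower, beside 12.0% and 7.35%. TUBB3 was called in neither. The part of these 3 lists in the results below was not tested.

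The first question was which of the 10 genes differed in NOTCH1KO cells from WT cells. LRRC15 and S100A4 were higher and FAP, ACTA2 and PRRX1 lower in NOTCH1KO cells, so that 2 of 10 were called higher and 3 lower, where 10.7% of all genes tested were called higher and 12.8% lower. The same 5 genes had groups that did not overlap, 2 above and 3 below, against 11.9% and 12.5% of all genes. The median log2 difference of the 10 was -0.28, against 8.85e-05 over all genes tested.

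LRRC15 (ENSG00000172061, GRCh37 chromosome 3, 194075976 to 194090472, minus strand) had the larger of the 2 called increases. In the order Jagged1 with DAPT, Jagged1 with DMSO, Fc with DAPT and Fc with DMSO, which is used for all values by library, it had 23.2, 15.5, 31.5 and 42.4 TPM in NOTCH1KO, against 7.07, 6.04, 11.6 and 14.8 TPM in WT. The lowest NOTCH1KO library thus lay just above the highest WT library, and within the same culture NOTCH1KO was 2.56 to 3.28 times WT. The log2 difference was 1.41 ± 0.161 (SE), with an adjusted p of 0.000817 by limma. In these bulk RNA samples, a change in the number of cells that express a gene and a change in transcripts per cell cannot be told apart.

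S100A4 (ENSG00000196154, GRCh37 chromosome 1, 153516089 to 153522612, minus strand) had 274, 342, 226 and 220.5 TPM in NOTCH1KO, against 192, 168, 161 and 147 TPM in WT. All NOTCH1KO libraries were above all WT libraries, with matched ratios of 1.40 to 2.03 and a log2 difference of 0.65 ± 0.117 (SE, adjusted p = 0.00614, limma). S100A4 overlaps S100A3 on the same strand in the deposited coordinates, and the tables do not show how shared reads were divided. S100A3 averaged 38.4 TPM in NOTCH1KO and 52.2 TPM in WT, so the overlapping gene was at a lower mean where S100A4 was higher.

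FAP (ENSG00000078098, GRCh37 chromosome 2, 163027194 to 163101661, minus strand) had 9.14, 15.5, 10.5 and 13.4 TPM in NOTCH1KO, against 18.1, 33.9, 20.6 and 28.6 TPM in WT. The groups did not overlap, and the 4 matched ratios were close together, between 0.457 and 0.513. The log2 difference was -0.99 ± 0.0948 (SE, adjusted p = 0.000382, limma), but with coverage in place of TPM it was -0.36 and the call was lost (adjusted p = 0.0718). That was the only alternative of 21 in which the FAP call in NOTCH1KO did not hold.

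ACTA2 (ENSG00000107796, GRCh37 chromosome 10, 90694831 to 90751147, minus strand) had 1.93, 1.27, 1.24 and 2.166 TPM in NOTCH1KO, against 5.33, 3.72, 3.34 and 4.89 TPM in WT. Every NOTCH1KO library lay below every WT library, at 0.342 to 0.443 times the matched value, and the log2 difference was -1.003 ± 0.119 (SE, adjusted p = 0.000985, limma). ACTA2 shares its locus with genes on the opposite strand, among them FAS, the gene of a death receptor, which averaged 4.72 TPM in NOTCH1KO and 10.6 TPM in WT. The libraries were stranded, but the sources used here do not state the strand setting of the counting, and the part of FAS in the ACTA2 values was not tested. STAMBPL1, also on the opposite strand there, averaged 18.0 TPM in NOTCH1KO and 16.7 TPM in WT.

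PRRX1 (ENSG00000116132, GRCh37 chromosome 1, 170631869 to 170708560, plus strand) had 1.02, 1.37, 0.687 and 1.76 TPM in NOTCH1KO, against 5.02, 18.7, 2.55 and 4.95 TPM in WT. The WT library on Jagged1 with DMSO stood far above the other WT libraries, and the groups did not overlap with or without it. The log2 difference was -1.71 ± 0.385 (SE, adjusted p = 0.0151, limma), and without that library it was -1.24 (adjusted p = 0.0202).

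The remaining 5 genes did not pass the test in this comparison. FBLN1 came closest, with 31.3, 27.5, 21.2 and 34.2 TPM in NOTCH1KO against 44.9, 28.7, 39.5 and 43.6 TPM in WT, lower in 4 of 4 matched pairs but overlapping (log2 difference -0.44 ± 0.142 SE, adjusted p = 0.0537, limma). TAGLN had a log2 difference of 0.42 (adjusted p = 0.0981) and was higher in 4 of 4 pairs, and VIM one of -0.30 (adjusted p = 0.0815) and was lower in 3 of 4. TWIST1 had a log2 difference of -0.26 (adjusted p = 0.218) and TWIST2 of -0.16 (adjusted p = 0.591). Some of these were called in single alternatives, FBLN1 in 5 of 21 (lowest adjusted p = 0.0286, limma), TAGLN in 2 (0.0149), and VIM (0.00805) and TWIST1 (0.0358) in 1 each. The contractile genes ACTA2, called lower, and TAGLN, not called, thus had opposite signs.

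**Figure D1:**
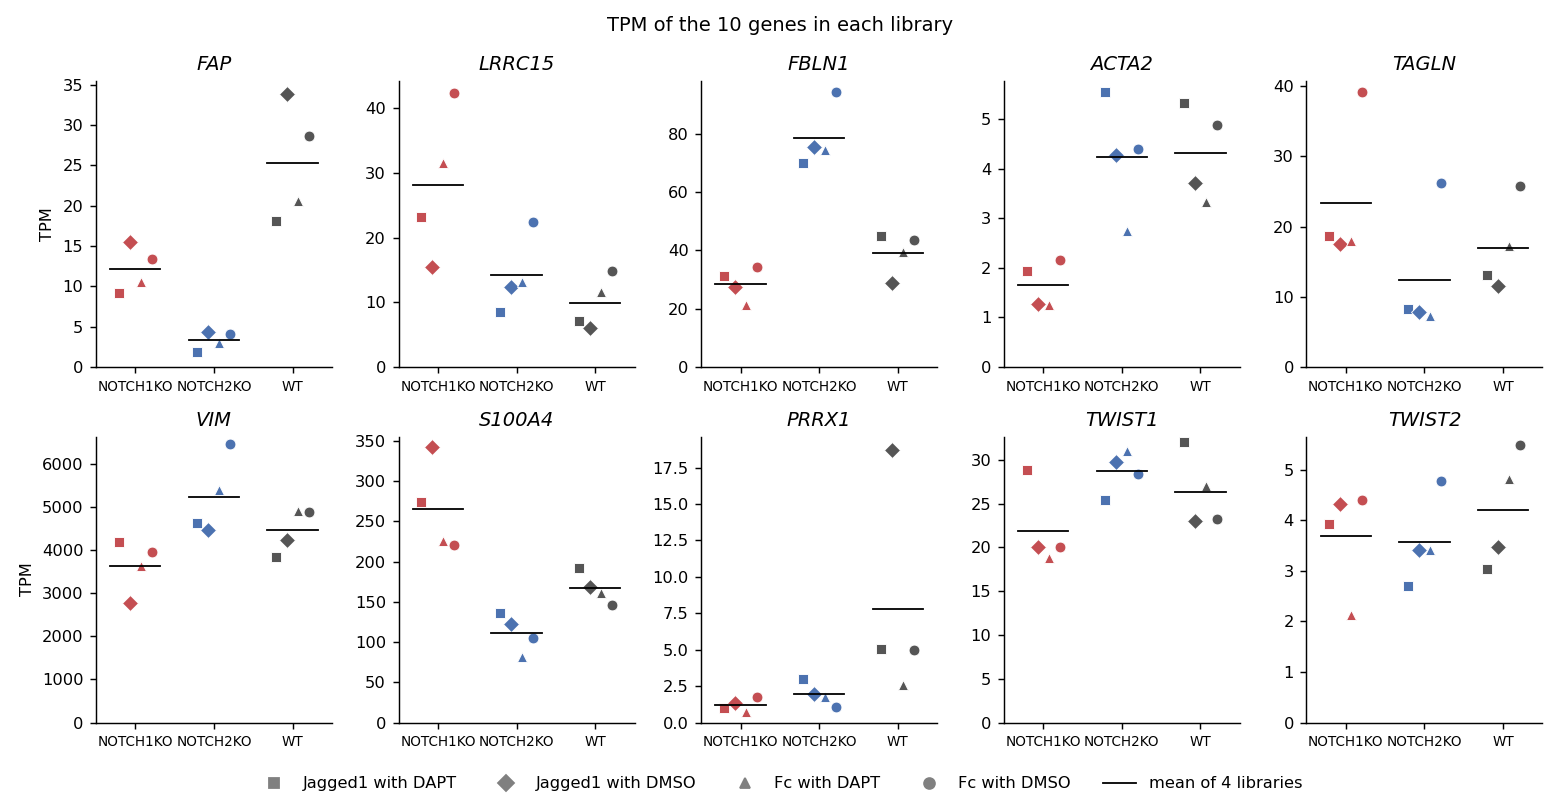
TPM of each of the 10 genes (y axes, linear, each from 0) by genotype. Each point is 1 library, its symbol stands for the culture, and a line marks the mean of the 4 libraries. FAP lies lowest in NOTCH2KO (1.82 to 4.35 TPM), FBLN1 highest in NOTCH2KO (69.9 to 94.4 TPM) and LRRC15 highest in NOTCH1KO (15.5 to 42.4 TPM), while TWIST1 and TWIST2 overlap between the genotypes.

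NOTCH2KO cells were set against the same WT libraries. FBLN1 was called higher and FAP, S100A4, PRRX1 and TAGLN lower, 1 and 4 of 10, where 12.0% of all genes tested were called higher and 7.35% lower. Groups without overlap were fewer, with FBLN1 above and FAP and S100A4 below (15.0% and 9.78% of all genes). The median log2 difference of the 10 was -0.11, against 0.06 over all genes tested. The calls of PRRX1 and TAGLN lay close to the threshold and were lost in most alternatives, which left 3 calls.

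FAP in NOTCH2KO cells was the largest difference of any of the 10 genes between genotypes. It had 1.82, 4.35, 2.97 and 4.14 TPM in NOTCH2KO, against the WT values of 18.1 to 33.9 TPM given above. The highest NOTCH2KO library thus lay far below the lowest WT library and below the 9.14 TPM of the lowest NOTCH1KO library. The matched ratios were 0.101 to 0.145, and the log2 difference was -2.61 ± 0.0948 (SE, adjusted p = 2.25e-06, limma). With coverage in place of TPM it was -1.68 (adjusted p = 0.000195).

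FBLN1 (ENSG00000077942, GRCh37 chromosome 22, 45898118 to 45997015, plus strand) had 69.9, 75.5, 74.3 and 94.4 TPM in NOTCH2KO, against 44.9, 28.7, 39.5 and 43.6 TPM in WT. Every NOTCH2KO library was above every WT library, by 1.56 to 2.63 times in matched cultures (log2 difference 1.00 ± 0.142 SE, adjusted p = 0.00264, limma).

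S100A4 had 136, 122, 81.8 and 104 TPM in NOTCH2KO, against 192, 168, 161 and 147 TPM in WT. The groups did not overlap, and the log2 difference was -0.60 ± 0.117 (SE, adjusted p = 0.00998, limma). S100A4 was thus called lower in NOTCH2KO and higher in NOTCH1KO, each against the same 4 WT libraries. S100A3 averaged 45.3 TPM in NOTCH2KO and 52.2 TPM in WT.

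PRRX1 had 2.96, 1.99, 1.78 and 1.08 TPM in NOTCH2KO, against 5.02, 18.7, 2.55 and 4.95 TPM in WT, with overlap between the highest NOTCH2KO and the lowest WT library. Its log2 difference was -1.30 ± 0.385 (SE, adjusted p = 0.0474, limma), and -0.84 without the WT library on Jagged1 with DMSO (adjusted p = 0.0807). TAGLN (ENSG00000149591, GRCh37 chromosome 11, 117070037 to 117075498, plus strand) had 8.23, 7.76, 7.30 and 26.2 TPM in NOTCH2KO, against 13.2, 11.5, 17.2 and 25.7 TPM in WT. It was lower in 3 of 4 pairs, with the Fc cultures in DMSO nearly equal, and its log2 difference was -0.56 ± 0.164 (SE, adjusted p = 0.0451, limma). Without the NOTCH2KO library on Fc with DAPT, the TAGLN difference was -0.43 (adjusted p = 0.127). PCSK7, which overlaps TAGLN on the opposite strand, averaged 20.2 TPM in NOTCH1KO, 21.6 TPM in NOTCH2KO and 26.3 TPM in WT. Its part in the TAGLN values was not tested. The call of PRRX1 was lost in 14 of 20 alternatives, where its adjusted p was 0.0529 to 0.144, and that of TAGLN in 12 of 21, where it was 0.0525 to 0.373.

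LRRC15 had a log2 difference of 0.48 in NOTCH2KO against WT and was higher in 4 of 4 pairs, but did not pass the test (adjusted p = 0.0715, limma; 0.0467 in the 1 of 21 alternatives that called it, library weights). VIM had one of 0.22 (adjusted p = 0.211) and was also higher in 4 of 4 pairs. ACTA2 had -0.03 (adjusted p = 0.888), TWIST1 0.13 (adjusted p = 0.576) and TWIST2 -0.18 (adjusted p = 0.558).

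**Figure D2:**
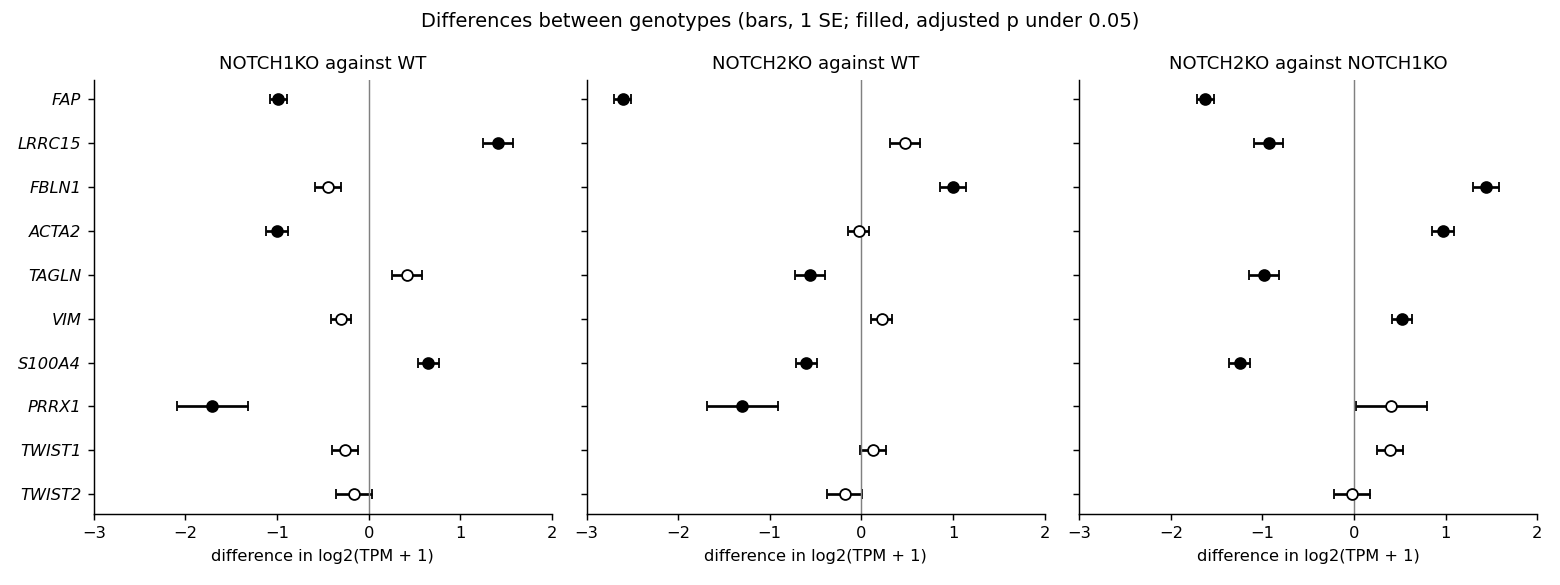
Difference in log2(TPM + 1) of each gene (x axes) in the 3 comparisons between genotypes, with bars of 1 SE and filled points for an adjusted p under 0.05 (limma). FAP reaches -2.61 in NOTCH2KO against WT, and the signs of S100A4 and FBLN1 are opposite in the comparisons of NOTCH1KO and NOTCH2KO with WT, with FBLN1 not called in NOTCH1KO.

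The knockout lines were also compared with each other. In NOTCH2KO against NOTCH1KO, FBLN1, ACTA2 and VIM were called higher and FAP, S100A4, TAGLN and LRRC15 lower, 3 and 4 of 10, where 19.8% of all genes tested were called higher and 11.9% lower. FBLN1, ACTA2 and VIM lay above without overlap and FAP and S100A4 below (19.6% and 12.3% of all genes). FBLN1 in NOTCH2KO was 2.23 to 3.50 times NOTCH1KO in matched cultures, with a log2 difference of 1.44 ± 0.142 (SE, adjusted p = 0.000258, limma). ACTA2 had 5.56, 4.29, 2.75 and 4.398 TPM in NOTCH2KO, against 1.93, 1.27, 1.24 and 2.166 TPM in NOTCH1KO (log2 difference 0.97, adjusted p = 0.000694, limma). FAS, on the opposite strand at that locus, averaged 11.2 TPM in NOTCH2KO against 4.72 TPM in NOTCH1KO.

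VIM (ENSG00000026025, GRCh37 chromosome 10, 17270258 to 17279592, plus strand) had 4626, 4473, 5405 and 6461 TPM in NOTCH2KO, against 4197, 2784, 3645 and 3962 TPM in NOTCH1KO. These groups did not overlap (log2 difference 0.52 ± 0.112 SE, adjusted p = 0.00845, limma), although the 3856 to 4909 TPM of WT overlapped both. FAP was at 0.199 to 0.310 times NOTCH1KO in matched cultures (log2 difference -1.62, adjusted p = 2.57e-05, limma) and S100A4 at 0.356 to 0.499 times (-1.25, adjusted p = 0.000204). TAGLN was lower in 4 of 4 pairs, with overlap because of the library on Fc with DMSO in NOTCH2KO (log2 difference -0.98, adjusted p = 0.00286, limma). LRRC15 had 8.56, 12.4, 13.2 and 22.5 TPM in NOTCH2KO, against 23.2, 15.5, 31.5 and 42.4 TPM in NOTCH1KO, lower in 4 of 4 pairs and overlapping between cultures (-0.93, adjusted p = 0.00333). Without the culture term in the model, the calls of TAGLN (adjusted p = 0.0849) and LRRC15 (adjusted p = 0.0674) were lost.

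The TWIST genes were called in none of these 3 comparisons. TWIST1 (ENSG00000122691, GRCh37 chromosome 7, 19060614 to 19157295, minus strand) had 28.8, 20.1, 18.7 and 20.1 TPM in NOTCH1KO, 25.5, 29.8, 31.0 and 28.4 TPM in NOTCH2KO and 32.0, 23.04, 27.0 and 23.2 TPM in WT. TWIST2 (ENSG00000233608, GRCh37 chromosome 2, 239756673 to 239795893, plus strand) had 3.94, 4.32, 2.12 and 4.39 TPM in NOTCH1KO, 2.69, 3.40, 3.41 and 4.77 TPM in NOTCH2KO and 3.04, 3.48, 4.82 and 5.49 TPM in WT. All genotypes overlapped for both genes. The closest to a call was TWIST1 in NOTCH2KO against NOTCH1KO, at 0.39 ± 0.142 (SE, adjusted p = 0.0686, limma). It was called in 3 of 21 alternatives, with coverage (adjusted p = 0.0171) and without the library on Jagged1 with DAPT in NOTCH2KO (0.0086) or in NOTCH1KO (0.0354).

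The comparisons between cultures asked whether Notch activation by Jagged1, or its block by DAPT, altered these genes within 12 h. None of the 10 was called in any of the 4 comparisons between cultures by limma, and few genes were called at all. For Jagged1 against Fc in DMSO, 0 of 10 were called, where 0.0114% of all genes were called higher and 0% lower, and 5 of 10 had an unadjusted p under 0.05 against 10.8% of all genes. For DAPT against DMSO on Jagged1 it was 0 of 10, with 0% of all genes called higher and 0.0284% lower, and 2 of 10 against 11.004% at the unadjusted level. DAPT against DMSO on Fc gave 0 of 10 (0.0170% of all genes in each direction), with 5 of 10 against 6.14% unadjusted. Jagged1 against Fc in DAPT gave 0 of 10 (0.00568% of all genes higher and 0% lower), with 4 of 10 against 4.74% unadjusted. These comparisons shared cultures, so their counts are not independent. Jagged1 against Fc in DMSO and DAPT against DMSO on Fc had the same libraries, on Fc with DMSO, as reference.

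TAGLN had its highest level in Fc with DMSO in each genotype. The library on Jagged1 with DMSO had 17.5 TPM in NOTCH1KO, 7.76 TPM in NOTCH2KO and 11.5 TPM in WT, against 39.2, 26.2 and 25.7 TPM on Fc with DMSO. With DMSO, TAGLN on Jagged1 was thus below Fc in each genotype, at 0.296 to 0.448 times the matched value. The log2 difference was -1.28 ± 0.189 (SE, unadjusted p = 0.000105, adjusted p = 0.188, limma). DAPT on Fc gave 17.9, 7.30 and 17.2 TPM in the same order of genotypes, below the same 3 libraries on Fc with DMSO (log2 difference -1.12 ± 0.189 SE, unadjusted p = 0.00028, adjusted p = 0.212, limma). The difference between the Jagged1 effect in DMSO and in DAPT, a comparison chosen after seeing the data, was -1.23 ± 0.267 (SE, unadjusted p = 0.00149, adjusted p = 0.801, limma). All of these TAGLN comparisons used the libraries on Fc with DMSO, so they are not independent of each other. TAGLN averaged 30.4 TPM there, against 14.1 TPM on Fc with DAPT, 12.3 TPM on Jagged1 with DMSO and 13.3 TPM on Jagged1 with DAPT (n = 3 each).

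LRRC15 was likewise lower on Jagged1 than on Fc with DMSO in 3 of 3 genotypes, at 15.5 against 42.4 TPM in NOTCH1KO, 12.4 against 22.5 TPM in NOTCH2KO and 6.04 against 14.8 TPM in WT. The groups overlapped because of the differences between genotypes, and the log2 difference was -1.12 ± 0.186 (SE, unadjusted p = 0.000236, adjusted p = 0.213, limma). Without the NOTCH2KO library on Jagged1 with DMSO it was -1.36 and passed the test (adjusted p = 0.0251). With DAPT, Jagged1 was again lower than Fc in 3 of 3 genotypes, at 0.612 to 0.737 times, with a log2 difference of -0.54 (adjusted p = 1, limma). Over both drugs, chosen after seeing the data, the difference was -0.83 ± 0.131 (SE, adjusted p = 0.129, limma). S100A4 lay the other way, higher on Jagged1 than on Fc in 6 of 6 pairs, at 1.15 to 1.67 times. Its log2 difference over both drugs was 0.39 ± 0.0957 (SE, unadjusted p = 0.00329, adjusted p = 0.315, limma).

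**Figure D3:**
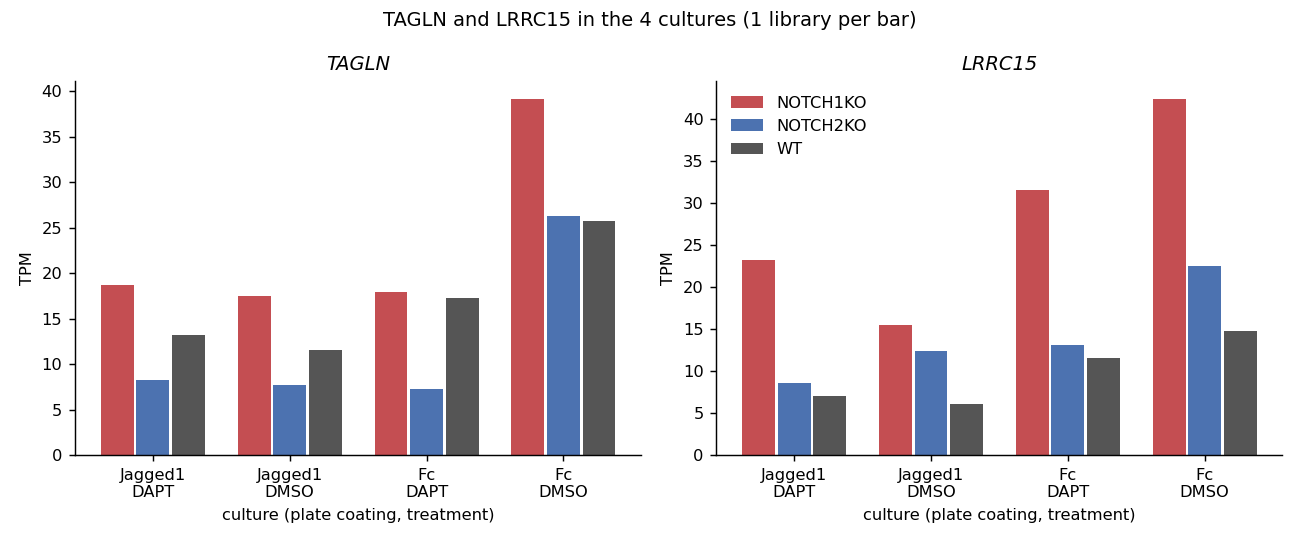
TPM of TAGLN and LRRC15 (y axes, linear from 0) in the 4 cultures, 1 bar per library, coloured by genotype. TAGLN is highest on Fc with DMSO in each genotype (39.2 TPM in NOTCH1KO, 26.2 TPM in NOTCH2KO and 25.7 TPM in WT), and so is LRRC15 (42.4, 22.5 and 14.8 TPM).

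FAP was lower with DAPT than with DMSO in each genotype and on each plate. On Jagged1 it had 9.14 TPM with DAPT against 15.5 TPM with DMSO in NOTCH1KO, 1.82 against 4.35 TPM in NOTCH2KO and 18.1 against 33.9 TPM in WT. On Fc it had 10.5 against 13.4 TPM in NOTCH1KO, 2.97 against 4.14 TPM in NOTCH2KO and 20.6 against 28.6 TPM in WT. The matched ratios of DAPT to DMSO were 0.419 to 0.591 on Jagged1 and 0.718 to 0.789 on Fc, all under 1. The log2 difference was -0.83 ± 0.109 on Jagged1 (SE, unadjusted p = 4.59e-05, adjusted p = 0.0695, limma) and -0.38 ± 0.109 on Fc (adjusted p = 0.642).

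Over both plates, a comparison chosen after seeing these values, FAP was called lower with DAPT (log2 difference -0.61 ± 0.0774 SE, adjusted p = 0.0265, limma), lower in 6 of 6 pairs, where 0.0681% of all genes were called higher and 0.244% lower. Of the 17621 genes tested, 704 were lower in all 6 pairs and 615 higher (3.49%). The call was lost in 15 of 23 alternatives. Leaving out any 1 of 11 of the 12 libraries gave an adjusted p of 0.0536 to 0.113, and leaving out the NOTCH2KO library on Jagged1 with DMSO gave 0.0264, while the difference itself stayed between -0.56 and -0.64. The call was also lost with coverage in place of TPM (adjusted p = 0.0873), with the NOTCH2KO libraries (0.177) or the WT libraries (0.551) left out, and with the culture term alone (1.000). FAP was the 1 gene of the 10 called in it, but TWIST2 was also lower in 6 of 6 pairs, at 0.482 to 0.912 times (log2 difference -0.31, adjusted p = 0.562, limma). Among the DMSO cultures, FAP on Jagged1 was 1.05 to 1.18 times Fc, with a log2 difference of 0.16 (adjusted p = 0.597, limma).

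**Figure D4:**
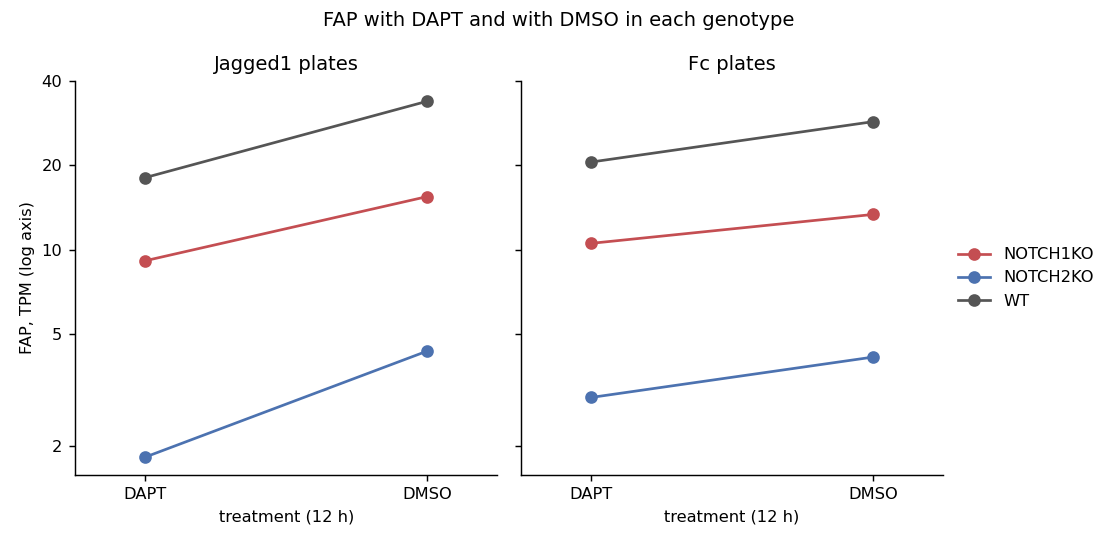
TPM of FAP (y axes, log scale) with DAPT and with DMSO on Jagged1 plates and on Fc plates, with lines joining the libraries of 1 genotype. All 6 lines are lower at DAPT, and on each plate NOTCH2KO lies lowest and WT highest (1.82 TPM in NOTCH2KO with DAPT on Jagged1, 33.9 TPM in WT with DMSO on Jagged1).

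The DAPT values of ACTA2 lay on opposite sides of DMSO on the plates. ACTA2 was lower with DAPT on Fc in 3 of 3 genotypes (0.573 to 0.683 times, log2 difference -0.49, adjusted p = 0.627, limma) and higher with DAPT on Jagged1 in 3 of 3 (1.296 to 1.52 times, 0.37, adjusted p = 0.383), neither of which passed the test. Between plates, ACTA2 with DAPT was higher on Jagged1 than on Fc in 3 of 3 genotypes (1.55 to 2.02 times, 0.58, adjusted p = 0.817, limma). With DMSO it was lower on Jagged1 in 3 of 3 (0.588 to 0.975 times, -0.28, adjusted p = 0.498, limma). For ACTA2 the Jagged1 effect in DMSO minus that in DAPT, chosen after seeing the data, was not called. It was -0.86 ± 0.195 (SE, unadjusted p = 0.00199, adjusted p = 0.802, limma). PRRX1 in WT stood at 18.7 TPM on Jagged1 with DMSO, against 5.02 TPM with DAPT on Jagged1 and 4.95 TPM on Fc with DMSO, while the knockout lines had no library above 2.96 TPM. Whether the response of PRRX1 differed between genotypes was tested with an interaction term. The DAPT response over both plates differed between NOTCH2KO and WT by 1.64 ± 0.602 in log2 (SE, unadjusted p = 0.0314, adjusted p = 1, limma). In the other 5 contrasts PRRX1 had differences of -1.23 to 0.88, with unadjusted p between 0.147 and 0.526. Of the 6 interaction contrasts, in which the Jagged1 or the DAPT response was compared between genotypes, none called any of the 10 genes by limma, and each had 0 or 1 of 10 with an unadjusted p under 0.05. All genes were called there at 0.0227% or less in either direction.

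Other genes of the same functions were counted from lists. Of 23 actin-based contractile and smooth muscle genes beside ACTA2 and TAGLN, 19 were tested, and 6 were called higher and 1 lower in NOTCH1KO against WT, with a median log2 difference of 0.15. Of all genes tested, 10.7% were called higher and 12.8% lower there, with a median of 8.85e-05. CNN1, the gene of calponin, had 4.89 ± 2.35 TPM in NOTCH1KO against 0.679 ± 0.573 TPM in WT (SD, n = 4 each, log2 difference 1.76, adjusted p = 0.00128, limma). The tropomyosin gene TPM1 had 1422 ± 218 TPM against 616 ± 50.0 TPM (1.20, adjusted p = 0.000541), and the myosin light chain gene MYL9 had 53.4 ± 24.7 TPM against 26.5 ± 5.34 TPM (0.89, adjusted p = 0.0174). Of SRF and its cofactors, MYOCD (0.83, adjusted p = 0.0274) and MKL1 (0.48, adjusted p = 0.0423) were called higher and 0 of 4 lower. MYOCD averaged 2.72 ± 1.99 TPM in NOTCH1KO, 0.686 ± 0.280 TPM in NOTCH2KO and 0.911 ± 0.551 TPM in WT (SD). It passed the filter on low values only through the NOTCH1KO libraries, so its call is not independent of the filter. ACTA2, at -1.003, went the other way from the contractile genes called higher. In NOTCH2KO against WT 4 of the 19 were called higher and 0 lower (median 0.32 over the 19, against 12.0% and 7.35% of all genes and a median of 0.06), TAGLN3 by 1.05, MYL9 by 0.71, MYH9 by 0.34 and TAGLN2 by 0.28, while TAGLN itself had -0.56. TAGLN3 averaged 1.91 TPM in NOTCH2KO, 0.998 TPM in NOTCH1KO and 0.411 TPM in WT, and passed the filter only through the NOTCH2KO libraries.

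Among 20 fibroblast surface and matrix markers beside the 10 genes, 17 were tested, with 2 called higher and 4 lower in NOTCH1KO against WT, where 10.7% of all genes were called higher and 12.8% lower. ENG, the TGF-β co-receptor endoglin, had 15.2 ± 3.07 TPM in NOTCH1KO against 51.5 ± 2.36 TPM in WT (SD, n = 4 each, log2 difference -1.72, adjusted p = 9.33e-05, limma), and CSPG4 had -1.06. The fibronectin gene FN1 had 5400.3 ± 962 TPM against 3510.5 ± 615 TPM (0.62, adjusted p = 0.00135). PDGFRA, the gene of the PDGF receptor α, was called lower in NOTCH1KO (0.827 ± 0.204 TPM, -0.79) and higher in NOTCH2KO (5.89 ± 1.52 TPM, 1.10), against 2.16 ± 0.160 TPM in WT. In NOTCH2KO against WT 2 of the 17 were called higher, PDGFRA and THY1 (0.52), and 2 lower, ITGA11 (-0.65) and FN1 (-0.37), where the shares of all genes were 12.0% and 7.35%. The list had a median log2 difference of -0.21 in NOTCH1KO and -0.01 in NOTCH2KO, each against WT.

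The families of single genes were mixed too. The counts below stand beside 10.7% of all genes called higher and 12.8% lower in NOTCH1KO, and 12.0% and 7.35% in NOTCH2KO, each against WT. Of 7 further fibulin family genes, 5 were tested, and FBLN5 was called lower in NOTCH1KO (-0.75, adjusted p = 0.00124, limma) and EFEMP1 higher in NOTCH2KO (1.33, adjusted p = 0.0255), each against WT. Of 9 tested S100 genes beside S100A4, 0 were called higher and 2 lower in NOTCH1KO against WT, and 2 higher and 0 lower in NOTCH2KO against WT, with S100A11 at -0.20 in NOTCH1KO and 0.26 in NOTCH2KO. Of the 5 tested peptidases related to FAP, 0 were called in NOTCH1KO, and in NOTCH2KO PREPL was called higher (0.64) and PREP lower (-0.41). Of 12 tested intermediate filament genes beside VIM, 3 were called higher and 3 lower in NOTCH1KO, with nestin (NES) at 6.50 ± 1.82 TPM against 0.730 ± 0.360 TPM in WT (SD, n = 4 each, log2 difference 2.11, adjusted p = 9.15e-05, limma). In NOTCH2KO 4 of them were called higher and 0 lower, the neurofilament-type gene INA by 1.29 and NES by 1.02 among them.

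Of 15 tested EMT factors and partners of TWIST proteins, 0 were called higher and SNAI1 lower in NOTCH1KO against WT (-0.53, adjusted p = 0.0154, limma), beside 10.7% and 12.8% of all genes. In NOTCH2KO against WT 4 were called higher, HAND1 by 1.54, ID2 by 1.03 and TCF12 by 0.78 among them, and 1 lower, ID4 (-0.57), beside 12.0% and 7.35% of all genes. HAND1 averaged 2.81 TPM in NOTCH2KO, 0.638 TPM in NOTCH1KO and 0.325 TPM in WT. It passed the filter on low values only through the NOTCH2KO libraries, so its call is not independent of the filter. HAND1 belongs to the family of TWIST proteins, TCF12 encodes a dimer partner of such factors, and ID2 and ID4 encode antagonists of them. Of 8 tested Notch response genes, 0 were called in Jagged1 against Fc in DMSO, where their median log2 difference was 1.06 against 0.02 over all genes tested. With DAPT on Jagged1 their median was -1.12, and HES1, the gene of a repressor induced by Notch, was called lower (-1.11, adjusted p = 0.0478, limma). Over both plates HES1 (-0.96, adjusted p = 0.00496) and JAG1, the gene of the ligand itself (-1.84, adjusted p = 0.0352), were called lower with DAPT.

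The tested genes within 5 Mb of each of the 10 were set beside it, as a description, to show whether its whole region differed. LRRC15 was above all 59 of its neighbours in NOTCH1KO against WT (log2 difference 1.41, neighbours' median -0.09). FAP was below all 32 of its neighbours in NOTCH2KO against WT (-2.61, median 0.06), and 3 of the 32 were below it in NOTCH1KO. PRRX1 had 1 of 70 neighbours below it in NOTCH1KO (median 0.29) and 0 in NOTCH2KO (median 0.26). S100A4 was above 191 of 203 neighbours in NOTCH1KO (median 0.11) and above 7 in NOTCH2KO (median 0.21). ACTA2 had 4 of 54 below it in NOTCH1KO (median 0.14), and FBLN1 was above 105 of 106 in NOTCH2KO (median 0.20). The medians of the regions lay between -0.10 and 0.33 in the comparisons with WT, and no region came near the difference of the gene called in it.

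**Figure D5:**
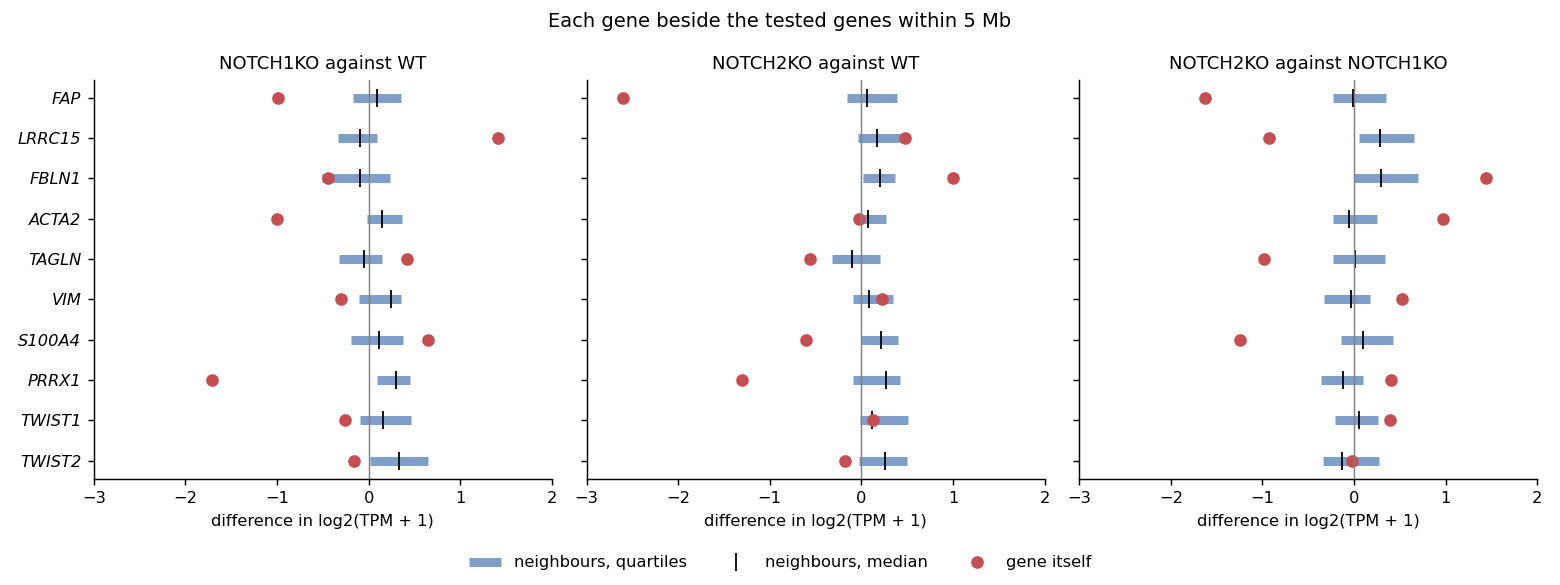
Difference in log2(TPM + 1) (x axes) of each of the 10 genes (point) beside the median (tick) and quartiles (bar) of the tested genes within 5 Mb of it, in the 3 comparisons between genotypes. The point of FAP in NOTCH2KO against WT (-2.61) and that of LRRC15 in NOTCH1KO against WT (1.41) lie outside the quartiles of their neighbours. The medians of the regions lie between -0.13 and 0.33.

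Across the 12 libraries, which share 3 genotypes and 4 cultures, the 10 genes did not vary as 1 block. Pearson correlations of log2(TPM + 1), given as a description, were highest between VIM and FBLN1 (0.75), TWIST1 and FBLN1 (0.69) and LRRC15 and TAGLN (0.69). They were most negative between VIM and S100A4 (-0.86), FBLN1 and S100A4 (-0.84) and LRRC15 and PRRX1 (-0.74), each over n = 12. Among the 10391 protein-coding genes of the main chromosomes whose TPM averaged 5 or more, those whose pattern was most like FAP were TMED3 (0.976) and PPP1R11 (0.962). For LRRC15 they were LYPD1 (0.954) and CCDC142 (0.950), for FBLN1 PODXL2 (0.977) and GFOD2 (0.971), and for VIM ZBTB7B (0.928) and PFKP (0.924). S100A4 came closest to NOMO2 (0.945) and NOMO1 (0.938), near-identical copies whose reads may have been shared between them. For TWIST1 they were MED10 (0.904) and KCNAB2 (0.902).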

How the data were processed

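The labels described stranded poly-A libraries (Illumina TruSeq) read as single 51-base reads, with bcl2fastq 2.17 and CASAVA named in the submitters' processing notes and GRCh37 as genome build. The sources used here do not name the aligner, the quantifier or the strand setting. The deposited TPM values had been scaled by the authors for gene length and library size, and so had the deposited FPKM values, while the deposited coverage is the mean read depth (signal) per base of a gene, which the authors had not scaled between libraries. TPM was summed per gene identifier and analysed as log2(TPM + 1) with limma 3.58.1 (R 4.3.3) with a mean-variance trend, additive genotype and culture terms (6 residual degrees of freedom, 4 with interactions) and Benjamini-Hochberg adjustment over all genes of a comparison. The script was tested on simulated data. The labels gave each sample's group. The 7 main comparisons, 6 interaction contrasts and other settings preceded the statistics, and 3 comparisons were added later.

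The 10 genes and 12 other lists were chosen with earlier results of these data known. Named besides the 10 were up to 4 genes per list with the largest called difference, the 2 protein-coding genes most like each of the 7 among the 10 with a mean TPM of at least 5, overlapping genes, markers, NOTCH1 and NOTCH2. The genes most like TAGLN and most single markers are not reported here. The alternatives were a pseudocount of 0.1, no filter, a mean TPM of at least 5, FPKM, coverage, median-centred libraries, library weights, no trend, 1 model term, each library left out, and WT or NOTCH2KO libraries left out of the comparisons between cultures. For the coverage alternative, the coverage of each library was first scaled so that its median over the tested genes was equal between libraries.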

Additional observations from a re-analysis of the deposited data

Results flagged for a closer look

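Each of the 10 genes was read in each of the 3 genotypes, as a group of 4 libraries that differ in culture. In these groups, 4 values stood apart from the other 3 by more than Dixon's 95% critical value allows, a rule that flags about 1 in 20 groups by chance. TAGLN was high on Fc with DMSO in NOTCH1KO (39.2 TPM) and in NOTCH2KO (26.2 TPM), which is the culture in which WT also had its highest TAGLN value. TWIST1 was high in NOTCH1KO on Jagged1 with DAPT, at 28.8 TPM, and TWIST2 was low in NOTCH1KO on Fc with DAPT, at 2.12 TPM.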

How the results depend on the processing

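Of the 17 calls of the 10 genes between genotypes, 12 held in every alternative in which they could be tested, and 0 called differences reversed. The others were FAP in NOTCH1KO against WT, lost with coverage, TAGLN and PRRX1 in NOTCH2KO against WT, and TAGLN and LRRC15 in NOTCH2KO against NOTCH1KO, lost with the genotype term alone. The count of genes called in NOTCH2KO against WT was 3 in place of 5 with no filter and with the genotype term alone, and 3 or 4 with 1 library left out. In the comparisons between cultures, where 0 were called, library weights gave 1 for DAPT on Jagged1 (FAP) and 1 for DAPT on Fc (TAGLN), and leaving out 1 library gave 0 to 1 for DAPT on Jagged1 and likewise for Jagged1 against Fc in DMSO. The cause of these changes was not tested. Over all genes, the calls ranged over the alternatives from 2637 to 5430 in NOTCH1KO against WT, from 2025 to 5011 in NOTCH2KO against WT, from 4126 to 6664 in NOTCH2KO against NOTCH1KO and from 0 to 118 for DAPT on Jagged1. Of the differences between genotypes not called, 6 were called in 13 alternatives in all (FBLN1, TAGLN, VIM and TWIST1 in NOTCH1KO against WT, LRRC15 in NOTCH2KO against WT and TWIST1 in NOTCH2KO against NOTCH1KO). The comparisons between genotypes were paired by culture through the culture term, and no block by replicate number was fitted, since each combination had a single library. ACTA2, PRRX1 and TWIST2 stood at a few TPM, where the log2 scale compresses differences and reads are few.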
